A study of Mus musculus with 4 samples.

Results

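*Gab1* and 9 genes for proteins that work beside it, between receptor tyrosine kinases and Ras, were examined in mouse embryonic stem (ES) cells with and without an intact *Prep1* gene. The 10 genes, *Gab1*, *Gab2*, *Gab3*, *Frs2*, *Frs3*, *Grb2*, *Shc1*, *Ptpn11*, *Sos1* and *Sos2*, were found by symbol among the 22718 genes measured. *Gab1* was chosen because its level was far lower in the library labelled Prep1-/-, and the others were chosen as its paralogs and partners, so the difference in *Gab1* is a description and was not tested. RNA-seq was done on 1 library of wild type ES cells and 1 library of ES cells of the genotype Prep1-/-, both of the strain C57BL/6 and both of undifferentiated cells. The Prep1-/- cells are a single line, KO2, and any property of that line cannot be told apart from the genotype. Prep1 is a homeodomain transcription factor of the TALE class, encoded by *Pknox1*. ChIP-seq with an antibody to Prep1 was done on wild type ES cells that the strain label gives as C57BL/6 and the protocol as R1, a line of another origin, and it is also 1 library, compared with input DNA.

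Gab proteins are docking proteins. Once a receptor kinase is active they become phosphorylated on tyrosines and gather the phosphatase Shp2, the regulatory subunit of PI3-kinase and other enzymes at the membrane. The Frs2 and Frs3 proteins do a similar task directly on Fgf receptors, Shc1 on many receptors, and Grb2 links all of these to Sos1 and Sos2, the exchange factors that load Ras with GTP. In mouse ES cells signalling from Fgf receptors through Ras to Erk is known for preparing the cells to leave the pluripotent state, while leukemia inhibitory factor, acting through its receptor and gp130, supports self-renewal.

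A single Prep1 peak lay in the *Gab1* gene, and the letters under it are shown first because they belong to the gene with the largest difference. *Gab1* (ENSMUSG00000031714) occupies 83288333 to 83404378 of chromosome 8 (minus strand, mm9, NCBIM37), and its 1 annotated transcript has 10 exons. The peak, from 83382701 to 83383734, lay wholly in intron 1, which spans 79.1 kb, and overlapped no exon. Its centre was 21.2 kb downstream of the start of the gene. The middle 300 bases of the peak, chr8:83383067-83383366, are given on the plus strand, opposite to the gene. Capitals mark the letters TGACAG on either strand and the looser motif TGANNGNCAG, where N is any base.

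Gab1 intron 1 peak: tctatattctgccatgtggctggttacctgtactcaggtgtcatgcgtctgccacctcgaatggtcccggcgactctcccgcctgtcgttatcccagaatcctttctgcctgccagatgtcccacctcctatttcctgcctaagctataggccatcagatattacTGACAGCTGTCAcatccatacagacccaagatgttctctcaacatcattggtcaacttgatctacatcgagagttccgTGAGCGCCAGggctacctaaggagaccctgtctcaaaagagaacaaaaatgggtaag

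The first capitals hold TGACAG on the plus strand followed at once by TGACAG on the minus strand, 12 bases in all, 20 bases from the centre of the peak. TGACAG is a core that TALE proteins such as Prep1 and Meis are known to bind. In all, 8 forms were searched on both strands: TGANTGACAG, TGANTGACA, TGANTGNCA, TGANNGACAG, TGANNGNCAG, GANTGACA, TGATTNAT and TGACAG. Several of them contain one another, and the last, like the inverted pair, was added after the letters of the *Gab1* peak had been read. Only TGANNGNCAG and TGACAG were found in the *Gab1* peak. The full form TGANTGACAG was not, although it was in 24.4% of the 3901 peaks with known bases throughout and in 1.62% of regions of the same lengths placed 5 kb to either side. The form TGANNGNCAG was in 47.2% of the peaks and 15.5% of the displaced regions, and TGACAG in 58.4% and 40.0%. The inverted pair was found in 8 of the 3901 peaks (0.205%) and in 2 of the 7799 displaced regions (0.0256%). These letters describe the sequence and do not show where the protein sat. Repeated elements are not marked in the genome used here. By eye the letters around the second capitals, TGAGCGCCAG, resemble a B1 repeat, which was not checked against a repeat annotation, so that match may belong to a repeated element.

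*Gab1* was covered by 19247 reads in wild type and by 1521 in the library labelled Prep1-/-. RPKM, the read number relative to gene length and library size, was 136 and 12.0. The ratio of the RPKM in the library labelled Prep1-/- to that in wild type (KO/WT) was therefore 0.0884, or -3.50 on the log2 scale, an 11.3-fold lower level. The 95% interval of the ratio was 0.0838 to 0.0931. This interval is exact (Clopper-Pearson, binomial) on the gene's reads, scaled to RPKM, and it holds the error of counting alone, between these libraries and not between genotypes. With 1 library per genotype none of the differences given here has a replicate check, and in cells sequenced in bulk fewer cells with *Gab1* RNA and less of it per cell cannot be told apart. The targeted gene *Pknox1* kept reads, 505 in wild type and 332 in the library labelled Prep1-/- (RPKM 7.85 and 5.78, ratio 0.736, interval 0.638 to 0.846). For this reason the library is called by its label throughout, and each direction rests on that label. The reads of a gene do not tell whether Prep1 protein was present.

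In the wild type library *Gab1* stood among the highly expressed genes. Its RPKM ranked 666th among the 15588 genes with at least 20 reads in the libraries together, with 4.27% of the genes above it. In the library labelled Prep1-/- it ranked 6541st, with 42.0% of the genes above it, and its RPKM of 12.0 was near 11.8, the median of all genes that passed an RPKM of 1 in both. Of the 983 genes with a wild type RPKM above 100 and at least 100 wild type reads, 64 had a ratio below 0.7 and 5 a ratio below 0.5, and the median ratio was 0.935. *Gab1* had the lowest ratio of these 983 genes, followed by *H19* with 0.140, while the third lowest was 0.336. *Gab1* had been chosen for its low ratio, so its place here is a description. These genes were filtered on the wild type library alone, which favours low ratios, and 7 had a ratio above 1.5.

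**Figure D1:**
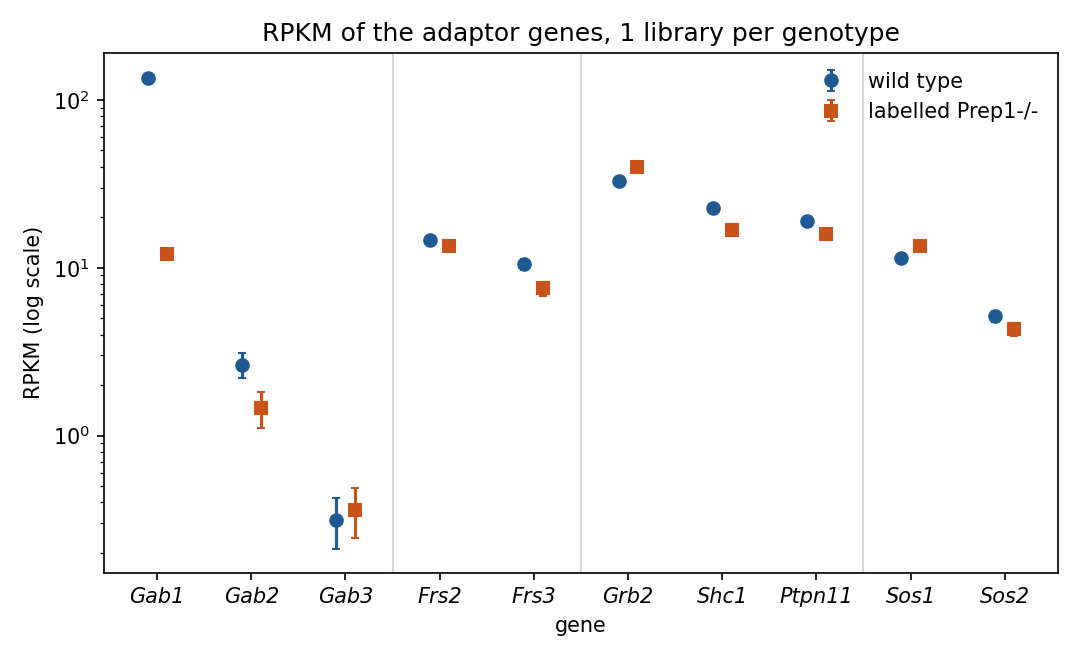
RPKM of the 10 adaptor genes on a log axis in the wild type library (circles) and the library labelled Prep1-/- (squares), with exact 95% Poisson intervals for counting error. *Gab1* was the highest of the 10 in wild type at 136 and the sixth at 12.0 in the library labelled Prep1-/-, while *Grb2* was at 33.0 and 40.0.

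The paralogs of *Gab1* were expressed at a small part of its level. *Gab2* (ENSMUSG00000004508, plus strand of chromosome 7, 104230261 to 104457450) had 135 and 66 reads, an RPKM of 2.63 and 1.45, and a ratio of 0.551 (interval 0.401 to 0.739). *Gab3* (ENSMUSG00000032750, minus strand of the X chromosome, 72212182 to 72330797) had 34 and 35 reads and an RPKM of 0.313 and 0.360. *Gab2* was thus lower in the library labelled Prep1-/- on few reads, and the interval of *Gab3*, 0.697 to 1.90, spanned 1. *Gab1* supplied 97.9% of the summed RPKM of the 3 *Gab* genes in wild type and 86.9% in the library labelled Prep1-/-. The sum itself was 139 in wild type and 13.8 in the other library, and neither *Gab2* nor *Gab3* came near the wild type level of *Gab1* in the library labelled Prep1-/-. *Gab1* RPKM was 51.6 times that of *Gab2* in wild type and 8.28 times in the library labelled Prep1-/-. Taken as a ratio of ratios, which does not depend on how the libraries are scaled, *Gab1* was lower than *Gab2* by a factor of 6.19 (exact conditional 95% interval 4.51 to 8.40, reads only).

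The *Frs* genes encode docking proteins anchored in the membrane at Fgf receptors. *Frs2* (ENSMUSG00000020170, minus strand of chromosome 10, 116507185 to 116585530) had 2470 and 2036 reads, with an RPKM of 14.6 and 13.5. Its ratio was 0.922 (0.869 to 0.978), next to the median of 0.923 of its chromosome. *Frs3* (ENSMUSG00000023266, plus strand of chromosome 17, 47825979 to 47841235) had 658 and 421 reads and an RPKM of 10.5 and 7.54. The ratio of *Frs3*, 0.716, was close to the threshold of 0.7, which its interval of 0.632 to 0.810 included. *Frs3* shares 509 of its 3132 annotated exon bases with the predicted gene *Gm14873*, and reads from that stretch may have been divided between them. The ratio of *Frs2* over that of *Frs3* was 1.29 (1.12 to 1.48, reads only).

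Among the proteins that join receptors and docking proteins to Ras, *Grb2* was higher and *Shc1* and *Ptpn11* lower in the library labelled Prep1-/-. *Grb2* (ENSMUSG00000059923, minus strand of chromosome 11, 115505359 to 115569911) encodes the adaptor that carries Sos to phosphorylated tyrosines. It had 5673 and 6148 reads, an RPKM of 33.0 and 40.0 and a ratio of 1.21 (1.17 to 1.26), the highest of the 10 genes. *Shc1* (ENSMUSG00000042626, plus strand of chromosome 3, 89222365 to 89233937) encodes an adaptor that binds activated receptors and, once phosphorylated, Grb2. It had 2102 and 1389 reads and an RPKM of 22.6 and 16.7, a ratio of 0.739 (0.690 to 0.791). *Ptpn11* (ENSMUSG00000043733, minus strand of chromosome 5, 121580542 to 121641406) encodes Shp2, the phosphatase that Gab1 and Frs2 recruit. It had 5076 and 3779 reads and an RPKM of 19.0 and 15.8, a ratio of 0.832 (0.798 to 0.868). All 3 genes stayed between the thresholds of 0.7 and 1.5.

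The exchange factors differed in opposite directions. *Sos1* (ENSMUSG00000024241, minus strand of chromosome 17, 80793092 to 80879793) had 2867 and 3052 reads, an RPKM of 11.4 and 13.5, and a ratio of 1.19 (1.13 to 1.25). *Sos2* (ENSMUSG00000034801, minus strand of chromosome 12, 70684748 to 70782839) had 700 and 524 reads, an RPKM of 5.13 and 4.29, and a ratio of 0.837 (0.746 to 0.939). The ratio of *Sos1* over that of *Sos2* was 1.42 (1.25 to 1.61, reads only), and *Sos1* had the higher RPKM in both libraries.

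Of the 10 genes 2, *Gab1* and *Gab2*, passed an RPKM of 1 in wild type and had a ratio below 0.7, as did 13.3% of the 14254 genes that passed this RPKM in at least 1 library. None combined a ratio above 1.5 with such an RPKM in the library labelled Prep1-/-, against 6.91% of those genes. *Gab3*, below an RPKM of 1 in both libraries, could not have been counted. The interval lay wholly below 1 for 7 of the 10 genes (36.3% of the 14254 genes) and wholly above 1 for 2, *Grb2* and *Sos1* (20.7%). Because *Gab1* was picked from these values, the shares are given for orientation only. *Gab1* was the only one of the 10 whose interval lay wholly beyond a threshold. The other 9 genes had ratios from 0.551 to 1.21 with a median of 0.837, and the 13218 genes that exceeded an RPKM of 1 in both had a median of 0.955. Against each of the other 9, *Gab1* was lower by a factor of 6.19 (*Gab2*) to 13.7 (*Grb2*).

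**Figure D2:**
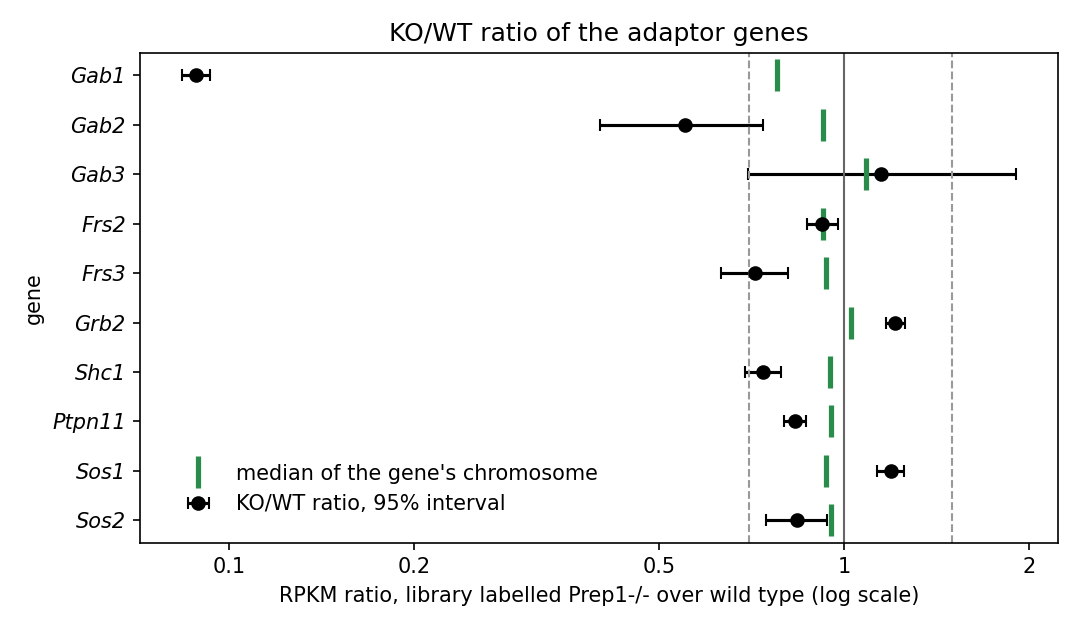
KO/WT ratio of RPKM on a log axis for the 10 genes with exact 95% intervals (counting error only), the thresholds of 0.7 and 1.5 (dashed) and the median ratio of each gene's chromosome (green bars). *Gab1*, at 0.0884, lies apart from the other 9, which range from 0.551 to 1.21.

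The order of the levels changed mainly through *Gab1*. In wild type the order by RPKM was *Gab1*, *Grb2*, *Shc1*, *Ptpn11*, *Frs2*, *Sos1*, *Frs3*, *Sos2*, *Gab2* and *Gab3*. All neighbours in it differed beyond their counting intervals except *Sos1* and *Frs3*. In the library labelled Prep1-/- the order was *Grb2*, *Shc1*, *Ptpn11*, *Sos1*, *Frs2*, *Gab1*, *Frs3*, *Sos2*, *Gab2* and *Gab3*, and the intervals of *Shc1* and *Ptpn11* and of *Sos1* and *Frs2* overlapped. *Gab1* RPKM was 4.11 times that of *Grb2* in wild type and 0.300 times in the library labelled Prep1-/-, and 7.14 and 0.758 times that of *Ptpn11*. *Gab1* held 53.3% of the summed RPKM of the 10 genes in wild type and 9.59% in the other library. Without *Gab1* the sum was 119 in wild type and 113 in the library labelled Prep1-/-.

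*Gab1* also differed from the genes beside it. Chromosome 8 as a whole had lower values in the library labelled Prep1-/-, with a median ratio of 0.779 over 702 genes against 0.963 on the other chromosomes, and it had the lowest median of the 20 chromosomes with at least 20 such genes. By the rule used above 30.7% of its genes were below 0.7, against 12.4% elsewhere. Divided by the chromosome 8 median, the ratio of *Gab1* was 0.114. The second lowest ratio among the 656 genes of chromosome 8 that had 100 reads or more and exceeded an RPKM of 1 in both was 0.255. The part of the chromosome in the *Gab1* value was not tested.

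Within 1 Mb of *Gab1* 9 genes were measured, of which 4 had an RPKM above 1 in both libraries. *Smarca5*, which encodes the chromatin remodelling ATPase Snf2h and lies 24.9 kb beyond the end of *Gab1*, had 575 and 547 reads and an RPKM of 8.90 and 9.47, a ratio of 1.06 (0.944 to 1.20). *Usp38*, a deubiquitinase gene 100.3 kb upstream of the *Gab1* start, had 1926 and 1472 reads and an RPKM of 14.3 and 12.2, a ratio of 0.855 (0.798 to 0.915). Both neighbours thus differed far less than the gene between them. *AC163438.3*, known by its clone name, had an RPKM of 8.00 and 8.03 (ratio 1.00), and *Anapc10*, for a subunit of the anaphase promoting complex, 1.08 and 1.27 on 87 and 91 reads (ratio 1.17). The median ratio of the 4 genes was 1.03, above that of chromosome 8.

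**Figure D3:**
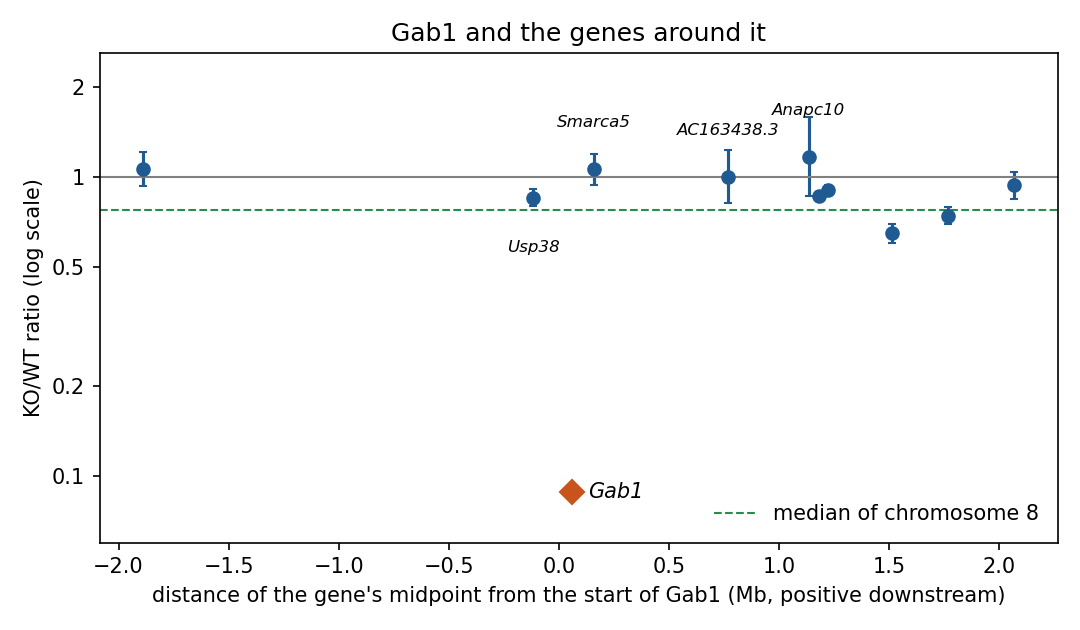
KO/WT ratio (log axis, exact 95% intervals) against distance from the *Gab1* start for the 10 genes within 2 Mb of *Gab1* with an RPKM above 1 in both libraries, and for *Gab1* (diamond). The 4 named genes within 1 Mb have ratios from 0.855 to 1.17, all above the chromosome 8 median of 0.779 (dashed). Of the genes farther out some lie above that median and some below it, the lowest at 0.650, and *Gab1* lies at 0.0884.

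Prep1 peaks, which played no part in the choice of the genes, lay within 20 kb of the span of 3 of the 10 genes, *Gab1*, *Grb2* and *Shc1*. This was close to the share of annotated genes with a wild type RPKM above 1, 30.6%. In the span itself the same 3 genes held a peak, against 16.0% of those genes. The deposited list gives for each of its 3902 peaks the fold enrichment over input as a whole number, from 4 to 336 with a median of 21. The *Gab1* peak had 66-fold enrichment, and 20.9% of all peaks had a higher value. The other 7 genes, *Gab2* among them, had none within 20 kb.

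*Grb2*, with a higher level in the library labelled Prep1-/-, had a 77-fold peak in its span, from 115560210 to 115561309, which 17.7% of all peaks exceeded. It lay 9.15 kb downstream of the first start of the gene and over the start of a shorter transcript, *Grb2-001*, 89 bases from the peak centre. TGACAG was found 3 times in it. *Shc1*, with a ratio of 0.739, had 3 peaks within 20 kb. One, 31-fold, from 89221995 to 89222729, had its centre 3 bases from the start of *Shc1* and also covered an exon of *Cks1b*. The others lay at starts of other genes, a 269-fold peak from 89214913 to 89216497 at *Flad1* and a 15-fold peak from 89234017 to 89234602 at *Pygo2*. The first of these ranked 7th of the 3902 peaks.

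Of the 6 peaks within 20 kb of the 10 genes 3 held a match to TGANNGNCAG, the *Gab1* peak, the *Flad1* peak and 1 that is not described here, and the stretch at *Flad1* is shown so that the matches can be compared. It is chr3:89215793-89215933 of mm9 on the minus strand, upstream of the *Flad1* exons, with the match in capitals.

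Peak at Flad1, upstream of Shc1: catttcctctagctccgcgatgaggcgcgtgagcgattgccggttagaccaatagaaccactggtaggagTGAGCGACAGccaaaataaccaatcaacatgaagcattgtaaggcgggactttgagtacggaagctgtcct

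This match also fits TGANNGACAG, which was in 31.0% of the peaks and 4.54% of the displaced regions, whereas the match in the *Gab1* peak does not. With a flank of 50 kb *Frs3* and *Ptpn11* also had a peak, of 10-fold and 13-fold enrichment, and *Gab2*, *Gab3*, *Frs2*, *Sos1* and *Sos2* had none.

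**Figure D4:**
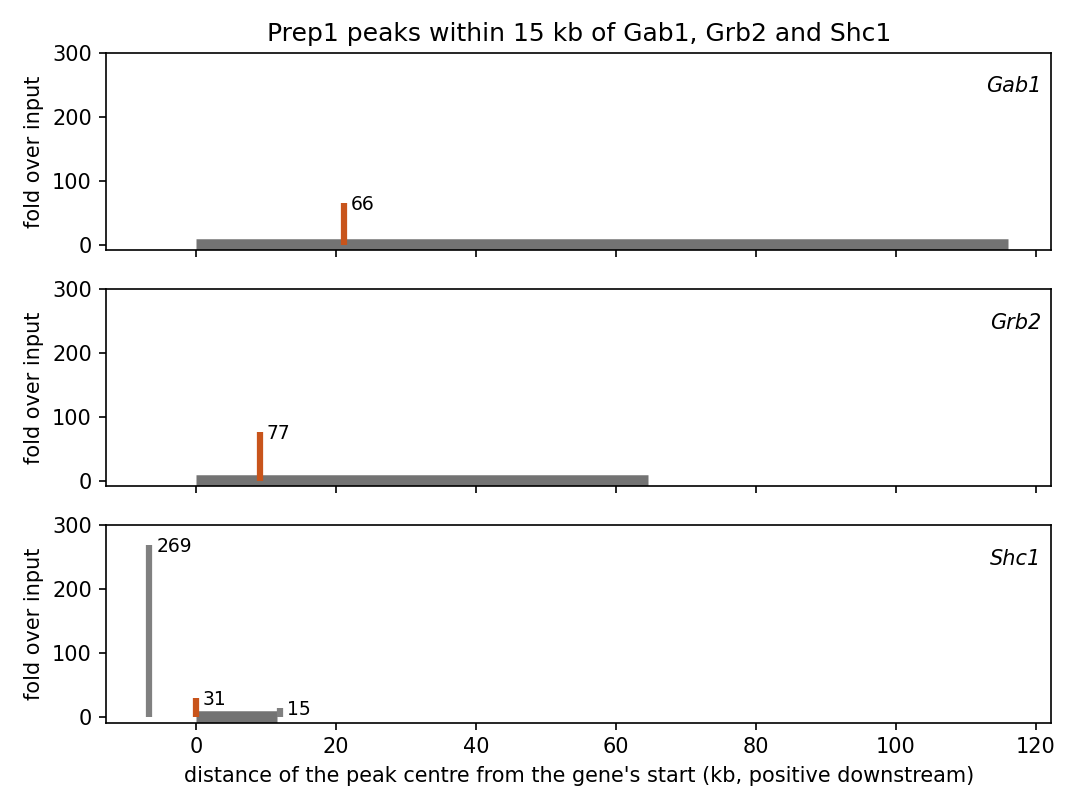
Prep1 peaks within 15 kb of *Gab1*, *Grb2* and *Shc1*, drawn as vertical lines at the distance of the peak centre from the start of the gene (kb) with their fold enrichment over input as height. Grey bars show the gene spans, orange lines peaks that overlap them. The *Gab1* peak (66) lies 21.2 kb into the gene, and the highest peak (269) lies upstream of *Shc1*.

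The rest of the pathway was described with 63 genes in 4 lists. Of these, 10 had a ratio below 0.7 and 5 a ratio above 1.5 at the same RPKM minimum, out of 55 that passed it in at least 1 library, beside the 13.3% and 6.91% of all genes. The median ratio of the 53 genes above 1 in both was 0.913, near the 0.955 of all genes, and none was as low as *Gab1*, the lowest being 0.523. Of the 55 genes with an annotated span and a wild type RPKM above 1, 17 (30.9%) had a Prep1 peak within 20 kb, beside the 30.6% of all such genes.

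Of the 17 receptor genes 13 passed the RPKM minimum in at least 1 library, and 2 of these were below and 2 above the thresholds. *Fgfr1*, the Fgf receptor with the highest level in these cells, had an RPKM of 73.4 in wild type and 51.9 in the library labelled Prep1-/-, a ratio of 0.708 (0.692 to 0.724) just above the threshold. *Fgfr4* had an RPKM of 2.16 and 1.22 (ratio 0.565) and *Egfr*, the receptor for epidermal growth factor, 6.45 and 4.44 (0.688, interval 0.627 to 0.755). *Lifr*, the receptor for leukemia inhibitory factor, was higher, with an RPKM of 4.59 and 9.02 and a ratio of 1.97 (1.73 to 2.25). *Fgfr2* was also higher, at 2.84 and 4.49 (ratio 1.58, interval 1.44 to 1.74).

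Of the 20 other adaptor genes 16 passed the minimum, with 6 below 0.7 and none above 1.5. *Grb10*, an imprinted gene whose product restrains signalling from the insulin and Igf1 receptors, had the highest level of the list, 186 in wild type and 124 in the library labelled Prep1-/- (ratio 0.667, interval 0.655 to 0.679). *Irs2*, the docking protein of the same receptors, had an RPKM of 46.5 and 24.3 and a ratio of 0.523 (0.500 to 0.547). Lower levels were also seen for *Dok1* (5.58 and 3.11, ratio 0.557), *Dok4* (2.78 and 1.55, ratio 0.556) and *Grb14* (1.55 and 0.830, ratio 0.536). *Dok3*, named for completeness after its values were seen, had 53 and 30 reads, and its interval spanned 1.

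Of the 10 genes for enzymes that Gab proteins recruit, which all passed the minimum, 2 were below and 1 above a threshold. *Plcg2*, a phospholipase C gene, had an RPKM of 39.5 and 25.8 (ratio 0.652, interval 0.617 to 0.689). Its wild type level was first in the list but within the counting interval of *Pik3r2*, for a regulatory subunit of PI3-kinase, which had 39.5 and 29.1. The paralog *Plcg1* had 17.4 and 12.2 and a ratio of 0.699 (0.655 to 0.744), at the threshold itself. *Pik3cd*, for a catalytic subunit of PI3-kinase, was higher, at 5.31 and 9.59 (1.81, interval 1.70 to 1.92). From Ras to Erk none of the 16 genes, which all passed it, was below 0.7 and 2 were above 1.5, the Ras relative *Mras* (5.27 and 10.5, ratio 1.99, interval 1.77 to 2.24) and the Raf scaffold gene *Ksr1* (3.33 and 5.03, 1.51, interval 1.38 to 1.66). *Map2k2*, for the Erk kinase Mek2, had the highest level of that list, an RPKM of 109 and 99.9 (ratio 0.913).

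Some of these genes share the chromosome of *Gab1*, and they were gathered after their values were seen. The 6 pathway genes on chromosome 8, *Fgfr1*, *Insr*, *Irs2*, *Dok4*, *Pik3r2* and *Plcg2*, all had a ratio below 1, from 0.523 to 0.808 with a median of 0.680. The median of the 702 chromosome 8 genes that exceeded an RPKM of 1 in both was itself 0.779. The pathway genes on other chromosomes that exceeded it in both had a median of 0.923. Relative to the chromosome 8 median *Irs2* was at 0.672, *Dok4* at 0.714, *Plcg2* at 0.837, *Fgfr1* at 0.909, *Pik3r2* at 0.947 and *Insr* at 1.04. The part of the chromosome in these values was not tested.

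**Figure D5:**
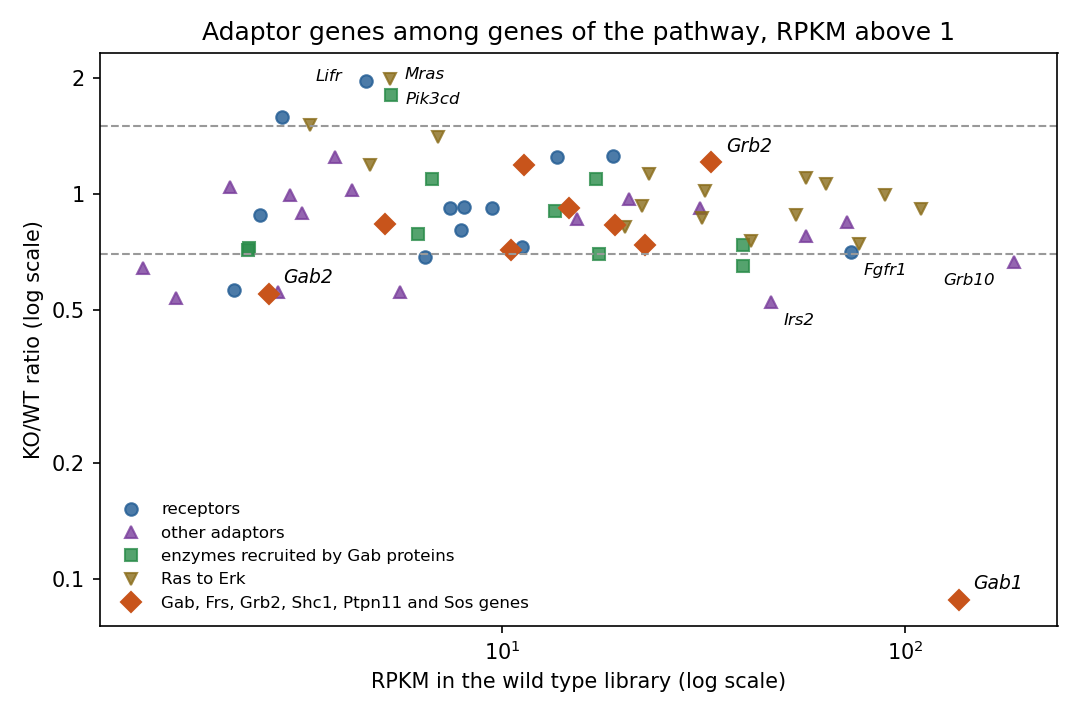
KO/WT ratio against wild type RPKM (both log axes) for the genes of the 4 pathway lists and for the *Gab*, *Frs*, *Grb2*, *Shc1*, *Ptpn11* and *Sos* genes (diamonds), each above an RPKM of 1 in at least 1 library, with the thresholds of 0.7 and 1.5 (dashed). The pathway genes lie between 0.523 and 1.99, and *Gab1*, with a wild type RPKM of 136, lies below them at 0.0884.

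The genes whose log2 KO/WT ratio was nearest to that of *Gab1* were sought among named genes, clone names left out, that had 100 reads or more and exceeded an RPKM of 1 in both. The comparison rests on 1 ratio of 2 libraries. The nearest was the imprinted noncoding RNA *H19*, with an RPKM of 106 and 14.9, still 0.66 away on the log2 scale. *Mfap2*, for a protein of elastic microfibrils, followed with 6.77 and 1.09 (131 and 18 reads). Then came *Pop5*, for a subunit of RNase P, with 65.6 and 16.0 (ratio 0.244), *Ly6a*, for the surface antigen Sca-1, with 5.52 and 1.37 (0.247) and *T*, for the mesodermal transcription factor Brachyury, with 20.5 and 5.09 (0.249). None of these 5 lies on chromosome 8.

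Both libraries had the markers of ES cells, and the markers of 2 other early lineages were mostly, but not all, lower in the library labelled Prep1-/-. The 9 ES cell markers were all expressed, with a summed RPKM of 1968 and 2264 and ratios from 0.801 to 1.58 (median 1.30). The interval lay wholly above 1 for 8 of them, beside 20.7% of the 14254 genes counted above. It lay below 1 for *Zfp42* (0.801), which is on chromosome 8. Of the 6 primitive endoderm markers 5 had a ratio below 1, while *Sox7* had 1.39 (1.09 to 1.79). The sum of the 6 was 7.92 in wild type and 4.15 in the library labelled Prep1-/-. The share below 1 was 58.8% of the 13218 genes above an RPKM of 1 in both. Of the 6 markers only *Gata4* (0.339) and *Sox7* were among these genes. *Sox17*, *Pdgfra* and *Foxa2* had an RPKM below 1 in both libraries. The trophectoderm markers summed to 784 and 470, mostly from the keratins *Krt8* and *Krt18*, which other cells also make. Without these 2 the sum was 7.38 and 3.02, with *Cdx2* and *Eomes* lower and *Elf5* at 3 and 7 reads. *Tfap2c* was not found by symbol. The methods describe culture on gelatin and name no feeder cells. Fibroblast markers, which feeder cells would bring, summed to 29.9 and 33.3, with *Lum* at 0 and 2 reads. They differed in direction, with a ratio of 1.36 for *Col1a1*, which made up most of the sum in the library labelled Prep1-/-, 0.523 for *Twist1* and 0.588 for *Twist2*, and with 6 and 33 reads for *Postn*. The part of such cells in the levels of the adaptor genes was not tested.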

How the data were processed

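RNA-seq and ChIP-seq of mouse ES cells were analysed from the authors' processed files. Per the submitters' notes and methods, RNA reads (paired, 50 bp) were assigned with RSEM to Ensembl 63 genes on mm9 and analysed with DESeq, and ChIP reads (36 bp) were mapped with BWA and peaks called with MACS against input, with no versions given. The authors deposited whole-number read counts per gene, without normalization, which summed to 29596294 (wild type) and 25717811 (labelled Prep1-/-). These sums are larger than the read number given in the methods. The authors also deposited RPKM values, which were proportional to the count plus 1 and were not finite for 85 genes, left out here. Their scale between the libraries, a factor of 1.12, is not that of the summed counts. Scaled by those sums, the ratio of *Gab1* was 0.0910 and that of *Frs3* 0.737. The deposited peak score is the MACS fold enrichment rounded to whole numbers. The antibody also binds Prep2 weakly.

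KO/WT ratios were taken from RPKM without a pseudocount, with exact 95% binomial intervals from the counts. Genes were counted below 0.7 with a wild type RPKM above 1, or above 1.5 where the library labelled Prep1-/- passed that RPKM. Reads are not independent molecules, so intervals cover counting error only. No test across replicates was possible, since each genotype has 1 library. Gene spans and exons are from GENCODE M1 (Ensembl 65) and sequences from NCBIM37, the same build as mm9. Peaks were assigned to genes by overlap with the span extended by 20 kb. A further peak is not reported here.

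The members and lists were chosen with earlier results of these data known. Named genes were the 10 members, *Pknox1*, pathway genes past a threshold with at least 100 reads together, the highest of each list, genes within 1 Mb of *Gab1* with an RPKM above 1 in both libraries, and the 5 genes nearest to *Gab1* in ratio. Other scalings, pseudocounts, thresholds, RPKM filters, windows and flanks were tried. Calls and intervals were tested on simulated data. The simulated counts held counting error only, so they cannot tell how calls hold up between libraries or cell lines. Scripts ran in Python 3.11.15 (scipy 1.17.1, pandas 2.3.3, numpy 2.4.6, matplotlib 3.10.9).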

Additional observations from a re-analysis of the deposited data

How the results depend on the processing

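Of 82 alternative values, 68 stayed within the counting interval, the spread of the neighbouring genes or 1.5 times the count, and 14 moved. No ratio of the 10 genes changed direction. The median ratio of the genes around *Gab1* did cross 1. It was 1.03 within 1 Mb, 0.959 with 0.5 Mb on each side and 0.922 with 2 Mb. The ratio of *Gab1* was 0.114 with the chromosome 8 median set to 1 and 0.0951 with 1 added to both RPKM values. With 1 added, *Gab1* supplied 96.5% of the summed *Gab* RPKM in wild type and 77.3% in the library labelled Prep1-/-. With thresholds of 0.5 and 2 only *Gab1* of the 10 genes was counted (1 gene), and 0 pathway genes were below and 0 above. With the median ratio of all genes set to 1, 8 pathway genes were below 0.7, against 10 before, and 5 above 1.5. With an RPKM minimum of 5 again 1 gene, *Gab1*, was counted, since *Gab2* is below it. With a flank of 50 kb 5 of the 10 genes had a Prep1 peak. Of the 45 values for the other 9 genes 5 moved beyond the counting interval, among them *Frs2*, at 0.999 with its chromosome median set to 1. *Gab2*, whose interval is wide, was at 0.674 with 1 added. No replicate could be left out, since each genotype has 1 library. No paired analysis was possible because each genotype has 1 library and the result comes from no test. Depth limits *Gab3* (34 and 35 reads) and *Gab2* (135 and 66 reads) most.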
